A study of Mus musculus with 6 samples.

Results

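The 9 genes described here, Aldh1a1, Aldh1a2, Aldh1a3, Aldh1a7, Crabp1, Crabp2, Cyp26b1, Dhrs9 and Rarg, make, carry, degrade or respond to retinoic acid or are close relatives of genes that do, and they are 9 of the 33308 genes in the deposited table. They were picked by gene name for their roles in retinoid metabolism and signalling, and were selected on a view of their levels in control and osimertinib-treated skin. The difference between those groups is therefore given for them as a description, with no test. The study measured polyadenylated RNA from mouse skin in 3 control libraries, labelled untreated, and 3 libraries of mice given osimertinib for 42 days. Osimertinib is a kinase inhibitor of the epidermal growth factor receptor used against lung cancer, and the study's stated subject is the skin problems it causes. The labels give the tissue and the treatment only, while strain, sex, age, dose and body site are not known from the sources used here. Whether each library of a group comes from its own animal is not stated, so the spread between libraries may be partly technical.

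Retinoic acid is made from vitamin A inside the cell. Retinol is taken up through the receptor Stra6, stored as esters by Lrat, and oxidised to retinal by alcohol and short-chain dehydrogenases such as Dhrs9. Retinal dehydrogenases of the Aldh1a family then make retinoic acid in a step that is not reversed, Crabp proteins carry the acid, Cyp26 enzymes hydroxylate it for removal, and heterodimers of retinoic acid receptors (Rar) and retinoid X receptors (Rxr) switch genes on when they bind it. In skin, retinoids are known for their effects on keratinocyte differentiation, sebaceous glands and the hair cycle.

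In treated skin the Aldh1a family had a different make-up from control skin. Aldh1a3 was higher in each treated library than in each control library, by 8.81-fold in the group means, and Aldh1a7 was lower in each treated library, by 4.13-fold. Crabp2 lay higher by 1.51-fold, with groups that did not overlap. Aldh1a1, Aldh1a2, Crabp1, Cyp26b1, Dhrs9 and Rarg overlapped between the groups.

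The 4 Aldh1a genes encode related enzymes, and the coding bases around the catalytic cysteine are shown because they tell the 4 transcripts apart at the site where the enzymes act. Each line gives 15 codons with the cysteine codon in the middle, from the GENCODE M21 transcripts, and capitals mark the bases that differ from Aldh1a1.
Aldh1a1: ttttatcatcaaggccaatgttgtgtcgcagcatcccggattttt
Aldh1a2: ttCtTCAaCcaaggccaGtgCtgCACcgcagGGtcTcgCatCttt
Aldh1a3: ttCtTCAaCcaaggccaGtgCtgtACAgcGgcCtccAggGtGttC
Aldh1a7: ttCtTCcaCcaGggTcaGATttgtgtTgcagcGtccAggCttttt

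Of these 45 bases, 15 differed from Aldh1a1 in Aldh1a2, 16 in Aldh1a3 and 13 in Aldh1a7. Over the whole coding sequence Aldh1a7 was 91.63% identical to Aldh1a1, while the other pairs of the family shared 65.92% to 68.48%. The longest run of coding bases common to Aldh1a1 and Aldh1a7 was 100, and 0 of the 1357 windows of 150 bases in Aldh1a7 occurred in Aldh1a1. The sources used here do not say how reads that match both genes were counted, so some reads may have been divided between Aldh1a1 and Aldh1a7.

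Those near-identical genes also lie near each other, Aldh1a1 at chr19:20492715-20643465 on the plus strand and Aldh1a7 at chr19:20692953-20727562 on the minus strand (GRCm38), 49.5 kb apart. RefSeq promoter windows (GRCm38.p6) reach from 250 bases before a start site to 50 after it, and 7 of the 9 genes had an entry. Aldh1a3 and Crabp2 had none, so their promoters were not searched. The window of Aldh1a7, chr19:20727507-20727806, and the second of the Aldh1a1 windows, chr19:20601718-20602017, were 70.16% identical and shared a stretch of 65 bases that begins 94 bases before each start site. It is shown because this stretch lies before 2 genes of which Aldh1a7 was separated between the groups and Aldh1a1 was not, with its letters left in lower case.
Aldh1a1 and Aldh1a7: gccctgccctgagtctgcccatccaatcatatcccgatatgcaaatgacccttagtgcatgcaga

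A search of the windows on both strands for AGGTCA, the core element that Rar and Rxr proteins bind, found 1 match in Dhrs9 and 1 in Rarg, and 16.25% of all 32544 windows held it. Pairs of AGGTCA or GGGTCA or AGTTCA or GGTTCA in the same direction were also searched, spaced by 1, 2 or 5 bases. They had 0 matches in the windows of the 7 genes with an entry and were found in 0.224%, 0.270% and 0.0983% of all windows.

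Library totals ran from 54112624 to 60719064 counts. Levels are given as CPM, which is counts scaled to a common library size with TMM factors, and comparisons between genes use the deposited FPKM, which is per length. Genes entered the fit if their FPKM averaged 1 or more across libraries. The filter passed 13498 genes, among them 7 of the 9 members, with Aldh1a2 and Dhrs9 below it. The quasi-likelihood test of edgeR called 0 genes at an adjusted p of 0.05, which is 0% of those tested, with 1883 genes at an unadjusted p under 0.05. DESeq2 called 3.41% of genes higher and 2.95% lower, and limma on log2(FPKM + 1) called 12 genes higher and 5 lower. Among all genes tested, 11.3% had every treated library above every control library and 9.38% had every treated library below.

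Of the 7 members that passed, 2 had all treated libraries above the controls, 1 had all below and 4 overlapped. Of the same 7, edgeR called 0, and DESeq2 called Aldh1a3 higher and Aldh1a7 lower. These counts follow from how the genes were chosen and are not read as a result about them.

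**Figure D1:**
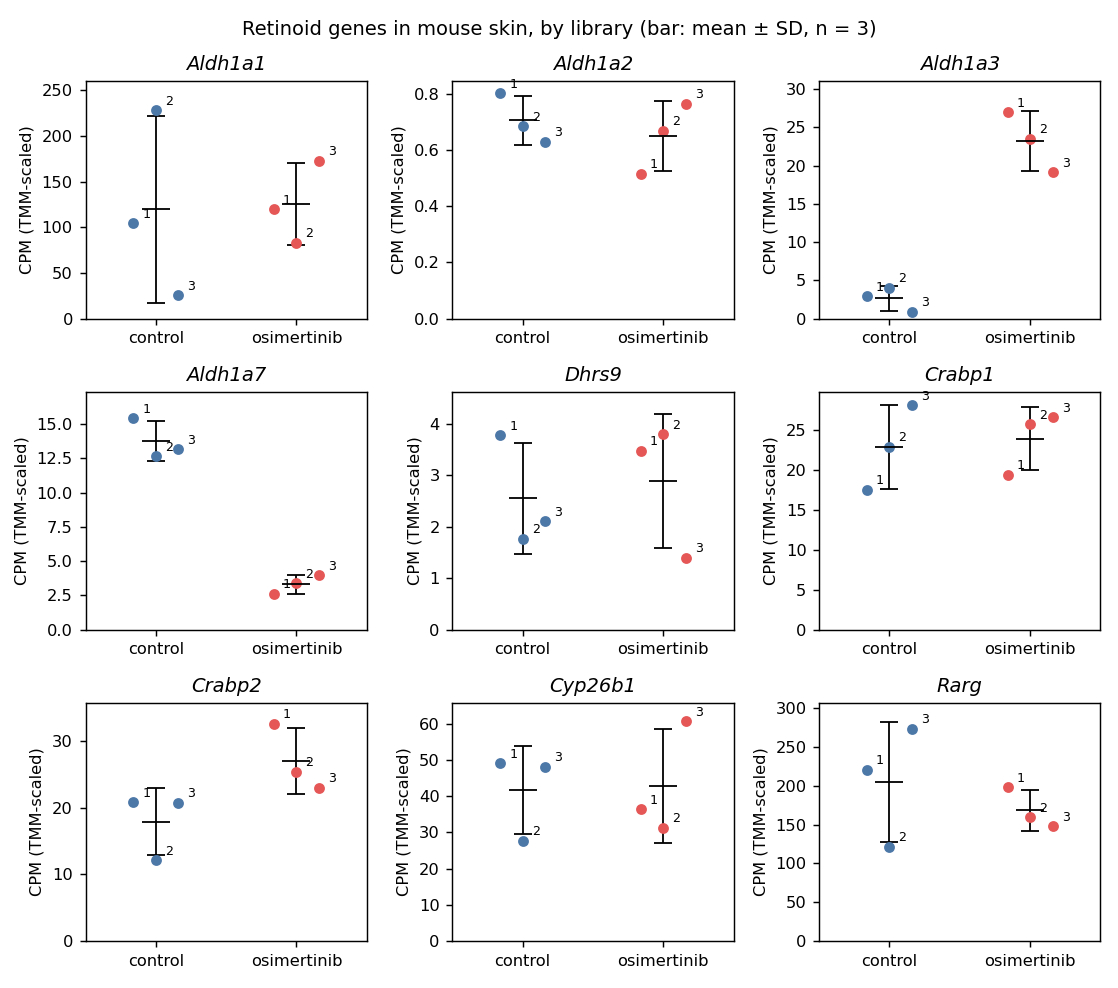
Level of each of the 9 retinoid genes in CPM (TMM-scaled, vertical axis from 0) in 3 control and 3 osimertinib libraries, with the library number beside each point and the mean ± SD as a bar. Aldh1a3 and Crabp2 lie higher and Aldh1a7 lower in all 3 treated libraries, and the other 6 genes overlap between the groups.

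Aldh1a3, a retinal dehydrogenase (chr7:66390890-66427517, minus strand), was at 2.90, 4.07 and 0.930 CPM in control libraries 1 to 3 and at 26.9, 23.5 and 19.1 CPM in osimertinib libraries 1 to 3. The lowest treated library was 4.71-fold above the highest control library, and the deposited counts behind these levels were 59 to 184 in controls and 1175 to 1564 in treated skin. The group means were 2.63 ± 1.59 and 23.2 ± 3.91 CPM (SD, n = 3 each), giving a log2 fold change of 3.14 ± 0.55 (SE). In control skin Aldh1a3 lay between the 2.4 and 3.2 percentiles of FPKM among the tested genes, and in treated skin between the 36.9 and 47.7 percentiles. Its control mean of 0.439 FPKM was under the filter of 1, so it was tested only through its treated libraries. Genes low in both groups were left out, so its low control rank follows partly from the filter.

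Aldh1a7, a rodent paralog of Aldh1a1 known for little activity on retinal, was at 15.4, 12.7 and 13.2 CPM in the control libraries and at 2.62, 3.38 and 3.98 CPM in the treated ones. The highest treated library was 3.18-fold under the lowest control. Its means were 13.7 ± 1.46 and 3.33 ± 0.681 CPM, giving a log2 fold change of -2.05 ± 0.25, and the SE was the smallest of the 7 members fitted after that of Crabp1. Aldh1a7 moved from between the 50.1 and 54.4 percentiles of the tested genes to between the 5.4 and 14.5 percentiles.

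Aldh1a1, with the highest mean level of the Aldh1a genes in both groups, was at 105, 228 and 25.9 CPM in the control libraries and at 120, 83.2 and 173 CPM in the treated ones. The controls spread over a wider range than the treated libraries and enclosed all of them. The means of 120 ± 102 and 125 ± 45.1 CPM gave a log2 fold change of 0.07 ± 0.73. Aldh1a2, the family member known best from the embryo, was near the bottom, at 0.803, 0.685 and 0.630 CPM in control libraries against 0.517, 0.670 and 0.766 CPM in the treated ones. Its lowest count was 30 in osimertinib 1, with an exact 95% Poisson interval of 20.2 to 42.8 for counting error only, and its groups overlapped.

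Set against each other per length, the 4 genes summed to 25.6, 36.4 and 11.4 FPKM in the control libraries and to 26.5, 21.9 and 36.0 FPKM in the treated ones, so the sums overlapped, while the shares of Aldh1a3 and of Aldh1a7 did not. Aldh1a3 held 2.10%, 1.63% and 1.61% of the sum in controls and 18.4%, 21.3% and 10.0% in treated skin. Aldh1a7 held 25.2%, 11.4% and 52.8% in controls and 3.99%, 6.83% and 4.64% in treated skin. Aldh1a7 lay above Aldh1a3 in every control library and under it in every treated one. It was 12.0, 6.99 and 32.7 times Aldh1a3 in FPKM in the controls and 0.217, 0.320 and 0.464 times Aldh1a3 in the treated libraries. The share of Aldh1a1 overlapped, at 43.3% to 86.4% in controls and 70.6% to 84.5% in treated skin.

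**Figure D2:**
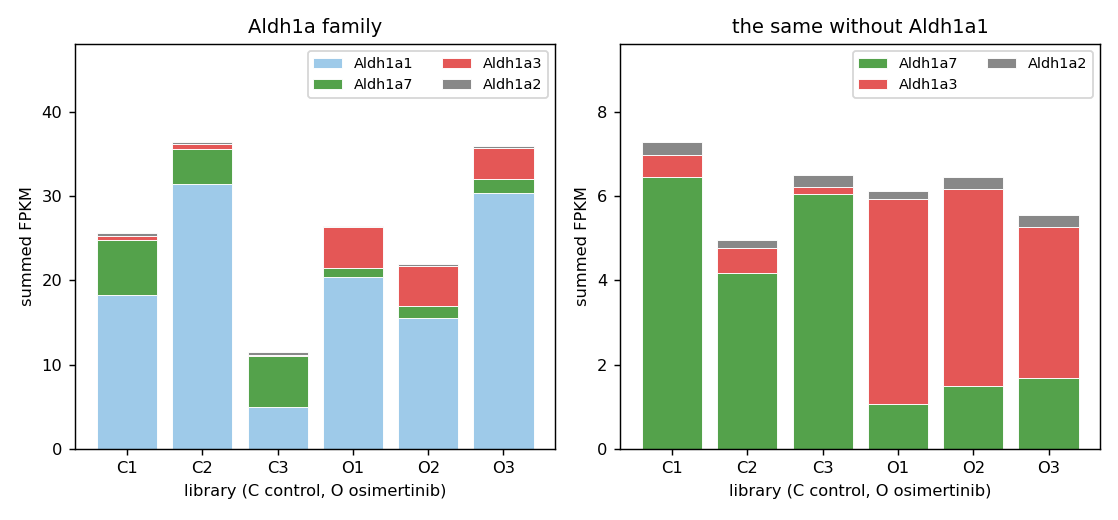
Summed FPKM of the Aldh1a genes in each library (C control, O osimertinib), stacked by gene, with Aldh1a1 at left and without it at right. Aldh1a7 is the largest of the 3 remaining genes in C1 to C3 and Aldh1a3 the largest in O1 to O3.

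The nearest genes that passed the filter on each side of Aldh1a3 and of the Aldh1a1 and Aldh1a7 pair are named for comparison. Genes below the filter may lie between. Lrrk1, which lies 2.54 kb from Aldh1a3, had a log2 fold change of -0.36 ± 0.26 (edgeR adjusted p = 0.602). Asb7, 217 kb away on the other side, had 0.19 ± 0.21 (edgeR adjusted p = 0.758). Anxa1, 102 kb beyond Aldh1a1, was at -1.11 ± 0.49 (edgeR adjusted p = 0.381). Zfand5, 545 kb beyond Aldh1a7, was at -0.10 ± 0.33 (edgeR adjusted p = 0.951). The groups of all 4 of these genes overlapped.

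Upstream of the Aldh1a enzymes, Dhrs9, a short-chain dehydrogenase that oxidises retinol to retinal (chr2:69380445-69404533), was at 3.78, 1.77 and 2.11 CPM in control libraries against 3.48, 3.80 and 1.40 CPM in the treated ones. Treated libraries held both the highest and the lowest of these 6 values, so the groups overlapped. Fitted with no filter on low values, its log2 fold change was 0.23 ± 0.50.

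Of the carriers Crabp2 and Crabp1, only Crabp2 had groups that did not overlap. The difference between their fold changes was not tested. Crabp2, which delivers retinoic acid to receptors in the nucleus and is itself known as a retinoid-responsive gene in skin (chr3:87948666-87953376), was at 20.8, 12.1 and 20.7 CPM in control libraries against 32.6, 25.4 and 23.0 CPM in the treated ones. All treated libraries were above all controls, but the nearest pair differed by 1.10-fold only. The means of 17.9 ± 5.02 and 27.0 ± 4.98 CPM gave a log2 fold change of 0.59 ± 0.27. Crabp1, the related carrier linked to retinoic acid breakdown (chr9:54764748-54773110), was at 17.5, 22.9 and 28.1 CPM in control libraries against 19.4, 25.7 and 26.5 CPM in the treated ones, giving a log2 fold change of 0.07 ± 0.24 with overlapping groups. In FPKM, Crabp2 made up 41.9%, 24.3% and 31.0% of the pair in the control libraries and 50.5%, 37.4% and 34.4% in the treated ones, and these shares overlapped.

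Cyp26b1, which hydroxylates retinoic acid and so ends its action (chr6:84571414-84593908), was at 49.1, 27.7 and 48.2 CPM in control libraries against 36.5, 31.3 and 60.7 CPM in the treated ones. The highest of the 6 values was from a treated library and the lowest from a control, and the groups overlapped, with a log2 fold change of 0.04 ± 0.34. It was the only Cyp26 gene with more than traces of RNA: Cyp26a1 did not exceed 0.205 CPM and Cyp26c1 did not exceed 0.0467 CPM in any library.

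Rarg, the retinoic acid receptor known as the main one of the epidermis (chr15:102234938-102257517), was at 221, 121 and 274 CPM in control libraries against 198, 160 and 148 CPM in the treated ones. Its treated values lay between the lowest and the middle control, with a log2 fold change of -0.28 ± 0.33. Without control 3 the value was -0.01, and without control 2 it was -0.54.

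Per length, Rarg had the highest mean level of the 9 genes in both groups, at 41.6 FPKM in controls and 34.5 FPKM in treated skin. In controls it was followed by Crabp1 at 23.8, Aldh1a1 at 18.2, Crabp2 at 11.6, Cyp26b1 at 6.66 and Aldh1a7 at 5.55 FPKM, and each of these overlapped its neighbour in the order. A gap without overlap then separated Dhrs9 at 0.502, Aldh1a3 at 0.439 and Aldh1a2 at 0.255 FPKM, which overlapped each other. In treated skin the order was Rarg, Crabp1 at 26.1, Aldh1a1 at 22.1, Crabp2 at 17.8, Cyp26b1 at 6.97, Aldh1a3 at 4.38, Aldh1a7 at 1.41, Dhrs9 at 0.591 and Aldh1a2 at 0.250 FPKM. There the overlapping neighbours were Crabp1 with Aldh1a1, Aldh1a1 with Crabp2, and Dhrs9 with Aldh1a2.

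The share of RNA from markers of several cell types differed between libraries, and in bulk tissue fewer cells of a type cannot be told apart from less RNA per cell. The 11 skeletal muscle markers, led by Myh4 and Acta1, held 3.66%, 10.8% and 0.0237% of the count in control libraries and 5.80%, 3.72% and 5.80% in treated skin. Control 2, the highest in muscle, was also the highest in Aldh1a1, and control 3, the lowest in muscle, was the lowest. Adipocyte markers, led by Car3 and Fabp4, held 0.339%, 0.667% and 0.0635% in controls and 0.219% to 0.375% in treated skin. The 6 basal keratinocyte markers, led by Krt5 and Krt14, held 1.51%, 0.774% and 3.44% in controls and 1.72%, 0.998% and 1.14% in treated skin, and Rarg was highest in control 3 and lowest in control 2 like them. Of the muscle, adipocyte and basal keratinocyte markers 0 were at 0 in a library.

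A fit with the muscle score added as covariate moved the log2 fold change of Aldh1a1 from 0.07 to -0.25 and that of Rarg from -0.28 to 0.01. Without control 2 the value of Aldh1a1 was 0.98, and without control 3 it was -0.43. The values of both genes thus depended on single control libraries. Aldh1a3, at 2.84 with the muscle score and 3.57 with the adipocyte score as covariate, and Aldh1a7, at -2.06 and -2.04, kept their direction.

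**Figure D3:**
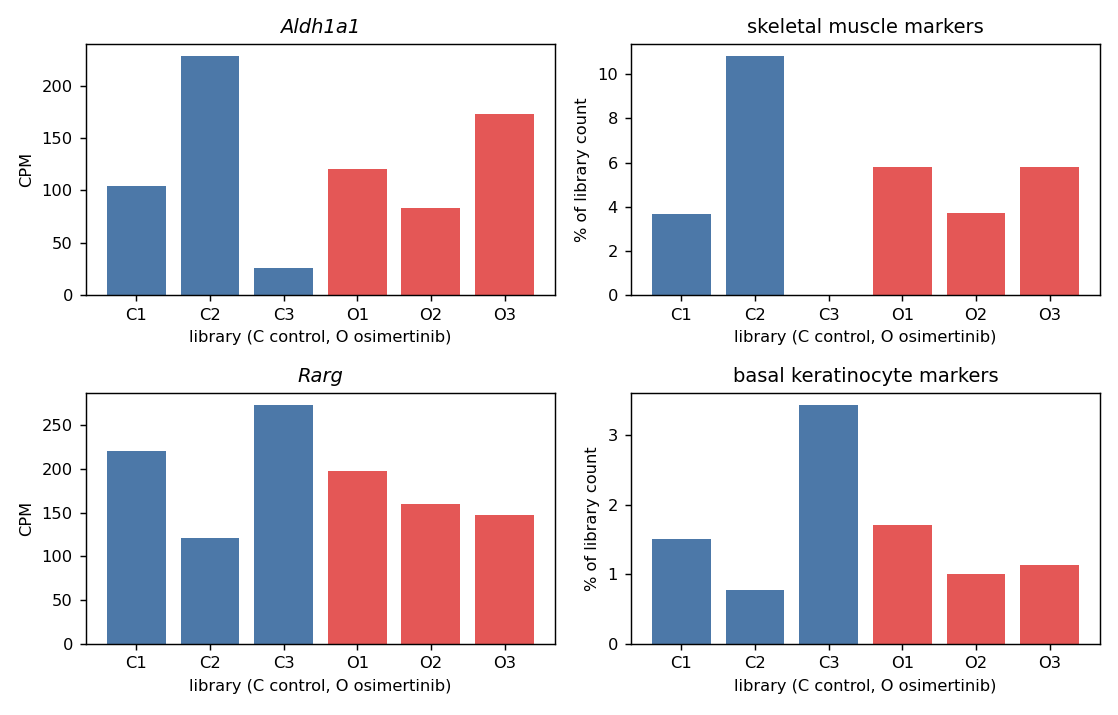
Level of Aldh1a1 and Rarg in CPM (left) and share of the library count held by skeletal muscle and basal keratinocyte markers (right), per library (C control, blue; O osimertinib, red). C2 is highest and C3 lowest for Aldh1a1 and for muscle, and C3 is highest and C2 lowest for Rarg and for basal keratinocytes.

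The hair follicle marker lists went in different directions. The 10 hair shaft keratins measured, led by Krt35 and Krt83, held 0.00320%, 0.0175% and 0.00377% of the count in control libraries and 0.0994%, 0.497% and 0.0527% in treated skin. Inner root sheath markers, led by Krt71 and Krt25, held 0.000772%, 0.0153% and 0.00112% in controls and 0.0504%, 0.427% and 0.0489% in treated skin. The 7 dermal papilla markers, led by Wif1 and Sox18, held 0.00281% to 0.00361% in controls and 0.00760% to 0.0127% in treated skin. Of these, Wif1, Corin and Alx4 were higher without overlap, while Sox18, Alpl, Rspo3 and Sox2 overlapped. The 6 hair matrix markers, led by Dlx3 and Hoxc13, held 0.00286% to 0.00450% in controls and 0.0264% to 0.0795% in treated skin. Shh among them had a count of 0 in control 1. As a summed share, each of these lists was higher in every treated library than in any control, like Aldh1a3. Gene by gene, this held for all 9 inner root sheath and all 6 hair matrix markers. Outside these lists it held for all 6 melanocyte markers, led by Dct and Pmel, and for their sum. They held 0.00117% to 0.00245% in controls and 0.0128% to 0.0416% in treated skin, and Tyr among them had a count of 0 in control 1. Among the hair lists the pattern was not complete. Of the 10 hair shaft keratins 4 were higher without overlap, and the other 6 overlapped. The summed share of hair follicle stem cell markers, led by Krt15 and Cd34, went the other way without overlap, like Aldh1a7. It was 0.695%, 0.256% and 0.978% in controls and 0.185%, 0.103% and 0.0688% in treated skin, and Krt15 held most of it. Gene by gene, 4 of the 6 stem cell markers were lower without overlap, while Lgr5 and Lhx2 overlapped. Companion layer and wound keratins, led by Krt17 and Krt6a, overlapped, at 0.0889% to 0.271% in controls and 0.181% to 0.249% in treated skin. Counts of 0 were found in control libraries 1 or 3 for 4 of the hair shaft keratins (Krt33b, Krt34, Krt81 and Krt86) and 4 of the inner root sheath markers (Krt25, Krt28, Krt72 and Krt74), and in no treated library. Osimertinib 2 had the largest hair shares, while Aldh1a3 was highest in osimertinib 1. Suprabasal keratinocyte markers, led by Lor and Krt10, held 1.20%, 0.399% and 1.25% in controls and 0.730%, 0.335% and 0.0889% in treated skin. The part of these markers in the levels of Aldh1a3, Aldh1a7 and Crabp2 was not tested.

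The values with 1 library left out separate the members into those whose fold change kept its sign and those whose did not. Aldh1a3 ran from 2.73 to 3.64, Aldh1a7 from -2.169 to -1.902 and Crabp2 from 0.40 to 0.72 on the log2 scale. Rarg kept a negative sign, from -0.54 to -0.01, and Aldh1a1, Crabp1 and Cyp26b1 crossed 0.

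**Figure D4:**
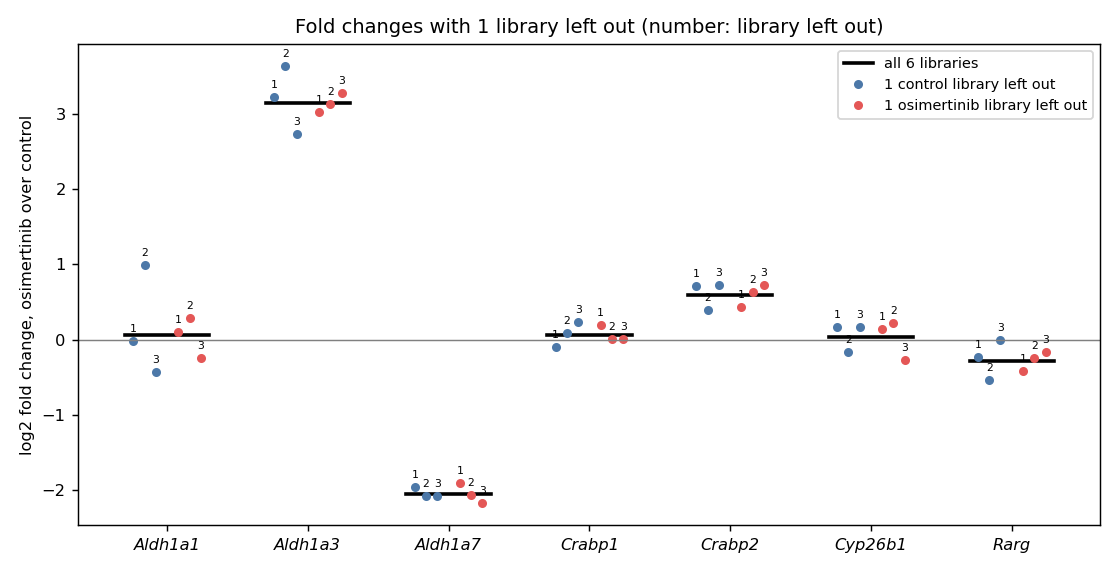
Log2 fold change, osimertinib over control, of the 7 fitted genes with all 6 libraries (black line) and with 1 control (blue) or 1 osimertinib (red) library left out, numbered by the library left out. Aldh1a3, Aldh1a7, Crabp2 and Rarg stay on their side of 0, while Aldh1a1, Crabp1 and Cyp26b1 cross it.

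The other genes of the pathway were taken from a list of 48 chosen by role, of which 38 passed the filter. Of these 38, 10 were higher and 28 lower in treated skin, where 45.3% of all genes tested were higher. The median log2 fold change was -0.20 against -0.05 for all genes tested. The edgeR test called 0 of them, with 5 at an unadjusted p under 0.05, where 1883 of all 13498 genes were under it. DESeq2 called 3 higher (Stra6, Fabp5 and Rara) and 1 lower (Ttr). In 3 genes all treated libraries were above the controls, and in 5 all were below. Over all genes tested these shares were 11.3% above and 9.38% below, and DESeq2 called 3.41% higher and 2.95% lower. Stra6, Lrat, Awat2 and Ncoa2, all higher, averaged under 1 FPKM in controls and passed the filter only through the treated libraries. Ttr, which was lower, passed only through the controls. The direction of these genes is therefore partly set by the filter.

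Among the 9 uptake and storage genes tested, 4 were higher and 5 lower. Stra6, the retinol uptake receptor, was at 1.57, 5.13 and 0.835 CPM in control libraries against 26.8, 54.5 and 13.3 CPM in the treated ones, with a log2 fold change of 3.66 ± 0.86 (edgeR adjusted p = 0.222). Its groups did not overlap. Ttr, which carries the retinol-binding protein of plasma, had counts of 566, 237 and 840 in controls and 0, 4 and 0 in treated skin (edgeR adjusted p = 0.124). Lrat, which esterifies retinol for storage, was at 2.87, 3.43 and 3.18 CPM in control libraries against 3.39, 14.5 and 11.7 CPM in the treated ones (log2 fold change 1.64 ± 0.53, edgeR adjusted p = 0.295), where osimertinib 1 lay within the controls.

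Of the 15 retinol and retinal oxidoreductases tested, 13 were lower and 2 higher, each by less than 1 on the log2 scale, and edgeR and DESeq2 each called 0, with 0 at an unadjusted p under 0.05. The 3 with the smallest p were Sdr16c5, a retinol dehydrogenase, at -0.80 ± 0.34 (edgeR adjusted p = 0.369), and the alcohol dehydrogenases Adh1 at -0.69 ± 0.34 (edgeR adjusted p = 0.430) and Adh7 at -0.72 ± 0.40 (edgeR adjusted p = 0.482). The groups of these 3 overlapped. Dhrs3 and Dhrs4, named after their values were seen, were lower without overlap, with the nearest pairs 1.03-fold and 1.07-fold apart. Adh4 and Rdh7 had a count of 0 in every library.

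Fabp5, which carries retinoic acid towards Ppard, was at 232, 175 and 230 CPM in control libraries against 352, 587 and 459 CPM in the treated ones, without overlap (log2 fold change 1.13 ± 0.27, edgeR adjusted p = 0.226). Of the 5 nuclear receptors tested besides Rarg, 2 were higher and 3 lower. Rara was at 22.1, 17.2 and 22.5 CPM in control libraries against 28.0, 32.2 and 29.3 CPM in the treated ones, without overlap (0.53 ± 0.17, edgeR adjusted p = 0.294). Rxra, the partner of Rar proteins, was at 228, 221 and 262 CPM in control libraries against 200, 198 and 188 CPM in the treated ones, also without overlap (-0.28 ± 0.17, edgeR adjusted p = 0.530). The next by p was Rxrb, at -0.15 ± 0.15 (edgeR adjusted p = 0.728), with overlapping groups.

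Of the 8 receptor coregulators, 7 were lower and 1 higher, and 0 passed either test. Nrip1, a repressor of ligand-bound receptors, was at -0.59 ± 0.27 (edgeR adjusted p = 0.396), Ep300, a histone acetyltransferase, at -0.21 ± 0.13 (edgeR adjusted p = 0.531), and its relative Crebbp at -0.29 ± 0.23 (edgeR adjusted p = 0.630). Of these only Ep300 had groups that did not overlap.

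**Figure D5:**
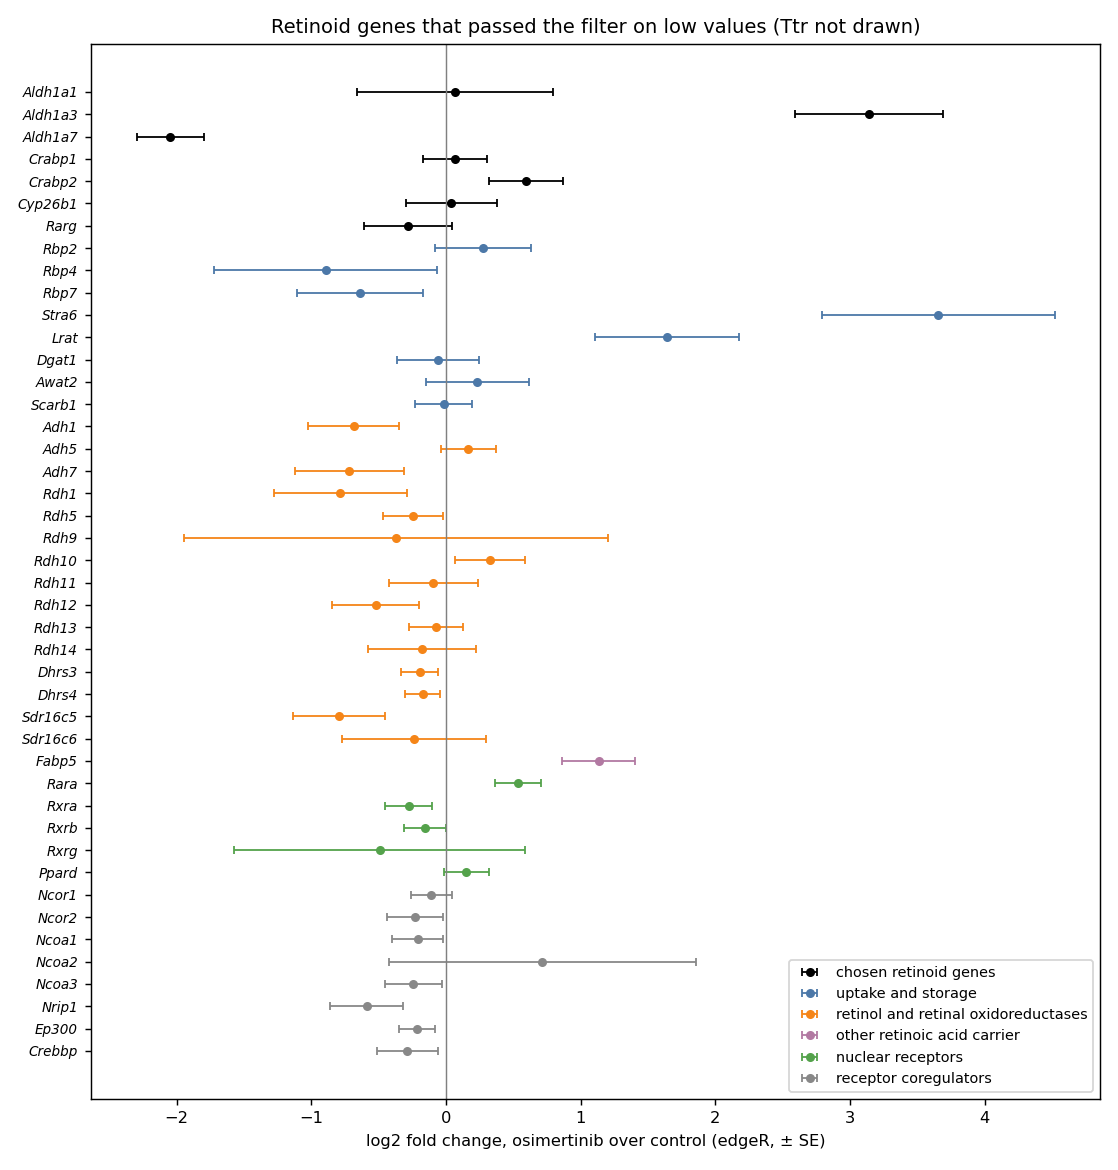
Log2 fold change, osimertinib over control, with its SE (edgeR), of the retinoid genes that passed the filter, coloured by role. Ttr is not drawn because it had counts of 0, 4 and 0 in treated skin. Stra6, Lrat and Fabp5 lie to the right beside Aldh1a3, and 13 of the 15 oxidoreductases lie to the left of 0.

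A list of 13 genes known to be induced by retinoic acid, some of them also in the pathway list, held 7 tested genes, of which 2 were higher and 5 lower. The 2 higher genes, Stra6 and Lrat, averaged 0.321 and 0.486 FPKM in controls and 4.80 and 1.63 FPKM in treated skin. They passed the filter of 1 only through the treated libraries, so their direction is partly set by the filter. Over all genes tested 45.3% were higher. The median was -0.20 on the log2 scale, against -0.05 for all genes tested. The edgeR test called 0, with 2 at an unadjusted p under 0.05, where 1883 of all 13498 genes were under it. DESeq2 called 1 higher, where it called 3.41% of all genes higher. The 3 with the smallest p were Stra6 and Lrat, given above, and Rarres1. Rarres1, a retinoid-induced membrane protein, was at -1.30 ± 0.57 (edgeR adjusted p = 0.376), Rarres2, which encodes chemerin, at -0.76 ± 0.34 (edgeR adjusted p = 0.384), and Tgm2, tissue transglutaminase, at -0.03 ± 0.75 (edgeR adjusted p = 0.994). Dhrs3, a retinal reductase, was lower without overlap, with the nearest pair 1.03-fold apart, while the groups of Rarres1, Rarres2 and Tgm2 overlapped. Rarres2, Tgm2 and Dhrs3 were chosen for mention after their values were seen. The median was -0.53 without control 3 and between -0.23 and -0.16 with any other library left out. Rarb and Cyp26a1, which retinoic acid induces in many cells, were below the filter, with at most 1.13 and 0.205 CPM.

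By Pearson correlation of log2 CPM over the 6 libraries, among 6740 genes whose FPKM averaged 5 or more, the 3 genes most like Aldh1a3 were Psmb4 (r = 0.983), Selenbp1 (r = 0.983) and Ptov1 (r = 0.978). Those most like Aldh1a7 were Adcy6 (0.988), Pttg1ip (0.982) and Snx27 (0.982). For these pairs the libraries lie in the groups control and treated, so r mostly reflects the difference between groups. Selenbp1, a selenium-binding protein, was at 32.3, 62.6 and 18.2 CPM in control libraries against 163, 166 and 113 CPM in the treated ones. Adcy6, an adenylate cyclase, was at 90.2, 87.5 and 85.7 CPM in control libraries against 54.9, 55.7 and 55.7 CPM in the treated ones.

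For Aldh1a1 the genes most alike were St6galnac6, Tusc2 and Hoxd8 (0.998, 0.998 and 0.997), all highest in control 2 and lowest in control 3. For Rarg they were Stk19, Txndc17 and Plpp2 (0.994 each), all highest in control 3 and lowest in control 2. For Crabp2 they were Pqbp1, Rpf1 and Prkab1 (0.992, 0.988 and 0.972), and for Crabp1 Phf12, Mylip and Hdgfl2 (0.921 to 0.891). Nsmce1, Cyp51 and Slc27a4 were most like Cyp26b1 (0.985, 0.968 and 0.967), Sprr1a, Cldn4 and Supt6 most like Dhrs9 (0.979, 0.974 and 0.962), and Lpcat3, Dcn and Slc25a22 most like Aldh1a2 (0.958, 0.923 and 0.916).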

How the data were processed

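Raw counts per gene and FPKM values were deposited by the authors for each library, per the file headers. Per the submitters' processing notes, cutadapt 1.9 and the build GRCm38 were used. Per the labels' protocols, the libraries were polyadenylated, strand-marked with dUTP, carried unique molecular identifiers and were read in pairs. Which aligner, counter and annotation were used, and whether strand and identifiers entered the counting, is not given in the sources used here, so overlapping genes and near-identical paralogs may share reads. A further 6 value columns match no sample and were not used.

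Counts were fitted with edgeR 4.0.16 in R 4.3.3 (quasi-likelihood F test, TMM scaling, FPKM averaging 1 or more, two-sided, Benjamini-Hochberg adjustment over all genes, threshold 0.05). Fold changes are osimertinib over control, and each SE is the ratio of the log2 fold change to the square root of F. The script was tested on simulated counts. Alternatives were DESeq2 1.42.0, limma 3.58.1 on log2 FPKM with pseudocounts of 1 and 0.1, other scalings and filters, a replicate block, muscle and adipocyte scores, and each library left out.

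The members and all lists were chosen with earlier results of these data known. A gene of the lists is not reported here and does not enter their counts and medians. Named besides the members were, by a fixed rule, the genes of each role group past the threshold or otherwise the 3 with the smallest p, the 2 highest of each marker list, and the 3 genes most like each member (names of the Gm, LOC and Rik kind left out). Promoters came from RefSeq and coding sequences from GENCODE M21.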

Additional observations from a re-analysis of the deposited data

How the results depend on the processing

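Across the alternatives, Aldh1a3 and Aldh1a7 kept their direction in all 17 that could be fitted, since a mean FPKM of at least 5 left both out, and Crabp2 in all 18. With limma on log2(FPKM + 1) their size was smaller, at 1.91 for Aldh1a3 and -1.43 for Aldh1a7, where the pseudocount of 1 compresses low values. Genes called higher, 0 in the edgeR fit, were 460 with DESeq2, 12 with limma on log2(FPKM + 1) and 1 with a pseudocount of 0.1. Genes called lower, also 0, were 398 with DESeq2, 5 and 1 with the limma pseudocounts of 1 and 0.1, 2 at a mean FPKM of at least 5, and 1 each with the muscle and the adipocyte score as covariate. In the pathway list 4 genes were called with DESeq2, and among the retinoic acid induced genes 1. The pathway median of -0.20 was -0.071 and -0.075 with the limma pseudocounts of 1 and 0.1 and -0.12 with the muscle score. The median of the induced genes, -0.20, was -0.49 at a mean FPKM of at least 5 and from -0.53 to -0.16 with 1 library left out. The causes of these shifts were not tested. With the replicate block that median was -0.20, and 0 genes were called in either direction. Libraries of the same number correlated at 0.22, 0.03 and -0.11 in their deviations from the group means. Not every library correlated best with its own number. The labels do not say that the numbers pair the samples, and such weak correlations cannot decide it. Precision is limited by 3 libraries a group.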

Other observations

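The KEGG retinol metabolism genes of the deposited annotation, a set chosen after the data had been seen, hold enzymes of broader substrate range than the 9 members. Without the members, 25 of 53 were tested, 6 were higher and 19 lower, where 45.3% of all genes tested were higher. Their median on the log2 scale was -0.37 against -0.05 for all genes tested. The edgeR test called 0, with 3 at an unadjusted p under 0.05, where 1883 of all 13498 genes were under it. DESeq2 called 2 lower, where it called 2.95% of all genes lower. Cyp2b10, a cytochrome P450 best known from the liver, was at 40.5, 21.6 and 63.8 CPM in control libraries against 7.12, 3.66 and 3.21 CPM in the treated ones, without overlap (log2 fold change -3.17 ± 0.52, edgeR adjusted p = 0.162). Cyp2b19, a keratinocyte P450 that acts on arachidonic acid, was at 163, 106 and 211 CPM in control libraries against 84.3, 63.4 and 36.0 CPM in the treated ones, also without overlap (-1.39 ± 0.39, edgeR adjusted p = 0.260). Both genes were chosen for mention after their values were seen, and suprabasal keratinocyte markers overlapped between the groups but were lowest in the treated libraries 2 and 3. Aox4, an aldehyde oxidase below the filter, was at 1.84, 3.999 and 2.65 CPM in control libraries against 9.34, 10.2 and 14.8 CPM in the treated ones.

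Some retinoid genes varied between libraries apart from the groups. Ncoa2, a receptor coactivator, was at 4.56, 39.4 and 5.60 CPM in control libraries against 3.33, 42.3 and 35.8 CPM in the treated ones, so both groups held high and low libraries. Rdh9, a retinol dehydrogenase with close relatives, had counts of 550, 0 and 1303 in controls and 792, 479 and 158 in treated skin, while Rdh1 was counted in every library. These genes too were chosen after their values were seen.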
